A study of Mus musculus with 2 samples.

Results

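Laminins are the large cross-shaped proteins around which basement membranes are built, and each is a trimer of 1 alpha, 1 beta and 1 gamma chain. The genes described here are the laminin chains Lama1, Lama2, Lama3, Lama4, Lama5, Lamb1, Lamb2, Lamb3 and Lamc1. They were taken as every non-control probe whose gene name in the scanner files was one of these symbols, with Lamb1-1 read as Lamb1. That gave 15 probes among 41174 on the array, and 9 genes among the 27343 gene and transcript names. The probes were taken by name, with no filter on their values. The gene list itself, like the partner and marker lists below, was chosen with earlier results of these data known.

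RNA came from mouse lenses at postnatal day 1, and each genotype had 1 one-colour Agilent array. The CKO lenses came from mice in which Msx2, a homeobox transcription factor, was deleted with Le-Cre, and the control lenses were Msx2 wild type. Le-Cre is a transgene in which a Pax6 regulatory fragment drives Cre in the surface ectoderm that forms the lens and the epithelia around it, so vessels, macrophages and mesenchyme lie outside the lineage it marks. Strain, sex, the number of animals behind each RNA and any Cre transgene in the wild type are not given in the sources used here. With 1 array per genotype, no difference below has a replicate check and no p-value exists. In RNA of a whole tissue, fewer cells of a type and less RNA per cell cannot be told apart.

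The alpha chains carry the globular domains that bind cell receptors, and the beta and gamma chains complete the coiled rod and the arms that join laminins into a sheet. Integrins and dystroglycan on the cell surface hold the sheet, and nidogen, perlecan and collagen IV are bound to it. The lens is enclosed in such a sheet, the lens capsule, which its epithelial and fibre cells secrete. At the age sampled the mouse lens is also still wrapped in a fine vessel network with basement membranes of its own.

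The sequences below are those of 60-base probes on which the results turn, 5′ to 3′, with positions in build mm9 as the scanner files give them. The first 2 lines are probes of Lama4, the alpha chain with the largest difference; the capitals mark 29 bases that they share. The Lamb2 probe had the next largest difference, and the last 2 lines are the probes that were lower in the CKO lens. These Lama4 probes lie on the plus strand at chr10:38825794-38825853 and chr10:38825032-38825822, in the order of the lines. The Lamb2 probe lies at chr9:108392189-108392248, the Lama1 probe at chr17:68167016-68167978 and the Lamb1 probe at chr12:32012684-32014030, all on the plus strand. Where the interval is longer than 60 bases, the probe joins separate stretches of the genome. Exon numbers and UTR boundaries were not annotated here.
Lama4 A_51_P212420: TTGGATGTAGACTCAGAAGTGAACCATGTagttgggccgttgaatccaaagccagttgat
Lama4 A_52_P7554: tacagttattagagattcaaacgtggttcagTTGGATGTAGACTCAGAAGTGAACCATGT
Lamb2 A_51_P248044: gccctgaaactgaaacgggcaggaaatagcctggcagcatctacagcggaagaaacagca
Lama1 A_51_P188108: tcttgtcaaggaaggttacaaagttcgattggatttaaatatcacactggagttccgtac
Lamb1 A_51_P244287: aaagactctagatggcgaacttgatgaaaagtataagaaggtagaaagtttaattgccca

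On each array between 54.2% and 55.1% of probes were well above background by the scanner software's mark, 0 spots were saturated, and the lowest signal with that mark was 16.5 to 16.6 intensity units. A probe is called measured where it had the mark on both arrays, which held for 21010 probes. Each array was scaled to its 75th percentile (203 intensity units for CKO and 201 for wild type), and each difference is the log2 value of CKO less that of wild type. The error given with a signal is the scanner software's own for that spot, and the error of a difference joins those of both arrays; neither covers the spread between animals. Msx2, the deleted gene, gave 371 ± 15.9 intensity units in wild type (SD over 10 spots of the same array) and 4.62 ± 1.77 in CKO. That is at least 22.6-fold less with the deletion, in the direction of the labels; the sources used here do not say whether its probe lies in the deleted part. Levels are compared only within a probe, since probes differ in how well they bind.

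The arrays were set against each other to ask what deletion of Msx2 changes in the lens. Lama4, the alpha chain best known from the basement membranes of blood vessels, was 3.18-fold higher in the CKO lens, and Lamb2, a beta chain of vascular, neural and kidney basement membranes, was 1.91-fold higher. Lamc1, the gamma chain shared by most laminins, was 1.19-fold higher, while Lama1 and Lamb1, the chains of the first laminin to appear in the embryo, were 1.14-fold and 1.17-fold lower, each difference being about as large as its error or smaller. Only the Lama4 and Lamb2 differences were more than 2 times their scanner error; those of the other measured laminin probes were below that.

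Of the 15 probes, 10 were measured, 1 was well above background in CKO only and 4 on neither array. Among the 10 measured probes 1 was at least 2-fold higher in CKO (10%), against 764 of all 21010 measured probes (3.64%). None of the 10 was at least 2-fold lower, against 750 of all measured probes (3.57%). Since 1 probe makes up 10% of the 10, neither count sets the laminins apart from the other probes. Of the 10 probes 8 were higher and 2 lower in CKO, where the 8 include both measured probes of Lama2 and both of Lama3, and 42.3% of all measured probes were higher. Their median log2 difference was 0.42, and that of all measured probes was -0.08 with an SD of 0.57. The sign of every measured laminin probe was the same in all 8 ways of scaling and correcting the arrays, the main one included. Some of these could not change a sign. Keeping outlier-marked spots alters no laminin probe. Median scaling and the percentile over measured probes shift all probes alike, by less than the smallest laminin difference (-0.19 for Lama1). The other scalings moved the balance of all probes past 2-fold from 50.5% higher to 34.8% (603 higher, 1130 lower) with median scaling and to 62.6% (930 and 555) with the percentile taken over measured probes. Median scaling lowered every difference by 0.12, the median of all probes included.

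**Figure D1:**
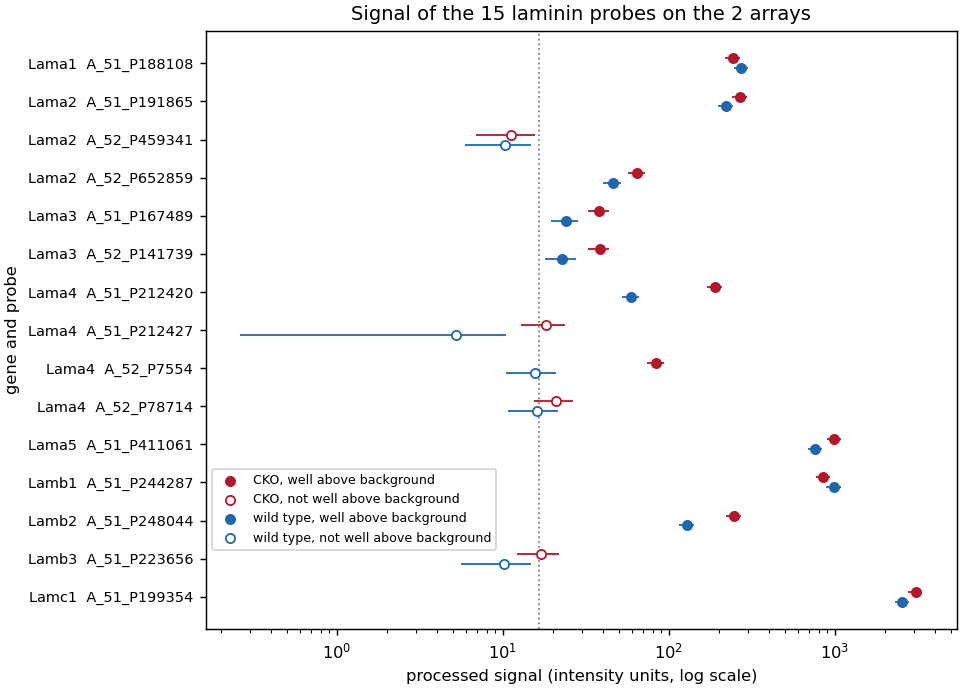
Processed signal of each laminin probe in intensity units (log scale), with the CKO array in red and the wild-type array in blue; bars are the scanner error, open circles are spots not well above background, and the dotted line is the lowest signal with that mark (16.6). Within a row the separation is widest for the Lama4 probe A_52_P7554, at 84.2 against 15.7, and the points of the 4 rows with open circles on both arrays lie near or left of the line.

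Lama4 had 4 probes, and they give the gene unequal support. Probe A_51_P212420 gave 189 ± 19.3 intensity units on the CKO array and 59.0 ± 7.06 on the wild-type array, a log2 difference of 1.67 ± 0.23. Only 1.10% of measured probes had a larger difference, and the intervals of signal plus or minus error were far apart. Probe A_52_P7554 gave 84.2 ± 9.83 in CKO and 15.7 ± 5.21 in wild type, where it was not well above background, so it was at least 5.05-fold higher in CKO. Among the 1692 probes well above background in CKO only, 30.1% had an at-least fold of 2 or more, a lower threshold than the 5.05-fold of A_52_P7554. These 2 Lama4 probes share the 29 bases printed above in capitals, so they are not independent readings of the transcript. The other pair of Lama4 probes lay near or below background. A_51_P212427 gave 18.3 ± 5.46 and 5.22 ± 5.20, and A_52_P78714 gave 20.8 ± 5.51 and 16.2 ± 5.42. Neither of these probes was measured, so they give the gene no difference. Under normexp background correction, where an offset of 50 is added to each signal, the difference of A_51_P212420 was 0.93, under 2-fold, and that of A_52_P7554 was 0.65.

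Lama2, the alpha chain of muscle and peripheral nerve basement membranes, had 3 probes. Probe A_51_P191865 was printed in 10 spots on each array, the only laminin probe with such a repeat. Its CKO spots ran from 241 to 290 intensity units with a median of 272, and its wild-type spots from 209 to 231 with a median of 222. Before scaling, the lowest CKO spot lay above the highest wild-type spot by a small margin. Median scaling lowers every difference by 0.12, and the separation was not checked under it. How many of the 126 probes printed as repeated spots separate in this way was not counted. Spot by spot the log2 difference was 0.13 to 0.38, with a mean of 0.27 ± 0.08 (SD over 10 spots, which measures printing and scanning only). A shift of that size is common on these arrays, since 21.6% of measured probes had a larger one. Probe A_52_P652859 gave 64.3 ± 7.27 in CKO and 45.9 ± 5.69 in wild type, a difference of 0.47 ± 0.24. Repeated spots at a like level had an SD of 0.40, nearly as large as that difference. Both measured Lama2 probes were thus higher in CKO by less than 2-fold, and with normexp their differences were 0.19 and 0.22. The remaining probe, A_52_P459341, gave 11.2 and 10.3 and was well above background on neither array.

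Lama3 and Lamb3 encode an alpha and a beta chain found in the hemidesmosome anchorage of stratified epithelia, and only Lama3 was measured. The Lama3 probe A_51_P167489 gave 38.1 ± 5.46 intensity units on the CKO array and 24.0 ± 4.50 on the wild-type array, a log2 difference of 0.66 ± 0.34. The Lama3 probe A_52_P141739 gave 38.3 ± 5.61 and 22.8 ± 4.81, a difference of 0.74 ± 0.37. The 2 probes, which lie apart on chromosome 18 (12741036 to 12741095 and 12615244 to 12615303, mm9), gave like differences. Their signals were not far above the lowest one marked as above background, and repeated spots at like levels had an SD of 0.44 to 0.45. With normexp the differences were 0.17 and 0.27. Lamb3 was well above background on neither array, at 17.0 ± 4.84 in CKO and 10.1 ± 4.55 in wild type.

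Lama1 and Lama5 are the alpha chains of embryonic and of mature epithelial basement membranes, and both belong to the lens capsule. The Lama1 probe gave 242 ± 24.8 in CKO and 274 ± 27.8 in wild type, a log2 difference of -0.19 ± 0.21. The Lama5 probe gave 994 ± 99.5 in CKO and 765 ± 76.6 in wild type, a difference of 0.37 ± 0.20. The Lama1 values overlapped within their errors and the Lama5 values did not, but 16.6% of all measured probes had a larger difference than Lama5 and 59.5% a larger one than Lama1. Another probe of the array, A_52_P561046, was printed for the cDNA clone AK044510, which the files describe as a laminin alpha 1 product without giving it the gene name. It lies on the same strand of chromosome 17, from 68155741 to 68155800 (mm9), and gave 103 ± 10.9 in CKO and 257 ± 25.9 in wild type. At 2.50-fold lower (-1.32 ± 0.21, and -0.95 with normexp) it differed more than the Lama1 probe itself, and 98.6% of measured probes had a higher value. Which transcript form this clone probe reads was not tested.

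Of the beta chains, Lamb2 and Lamb1 were measured and Lamb3 was not. Lamb2 gave 247 ± 24.9 intensity units on the CKO array and 128 ± 13.4 on the wild-type array, a log2 difference of 0.93 ± 0.21. That is 1.91-fold, below the threshold of 2-fold, and 4.16% of measured probes had a larger difference. Lamb2 passed 2-fold with the percentile taken over measured probes (1.03) and with intensity-dependent centring (1.00), and was lowest with normexp (0.72). Repeated spots at a like level had an SD of 0.12, so printing noise was small at this signal. Lamb1 gave 856 ± 85.7 in CKO and 992 ± 99.3 in wild type, a difference of -0.22 ± 0.20, and 62.7% of measured probes had a higher value. The Lamb1 difference was 1.09 times its error, ran from -0.35 to -0.10 over the settings, and lay near the median of all measured probes (-0.08).

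The gamma chain Lamc1 gave 3075 ± 308 in CKO and 2560 ± 256 in wild type, a log2 difference of 0.25 ± 0.20 that 22.5% of measured probes exceeded. The 3 probes of Lamc3, a gamma chain outside the list of 9, were well above background on neither array.

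**Figure D2:**
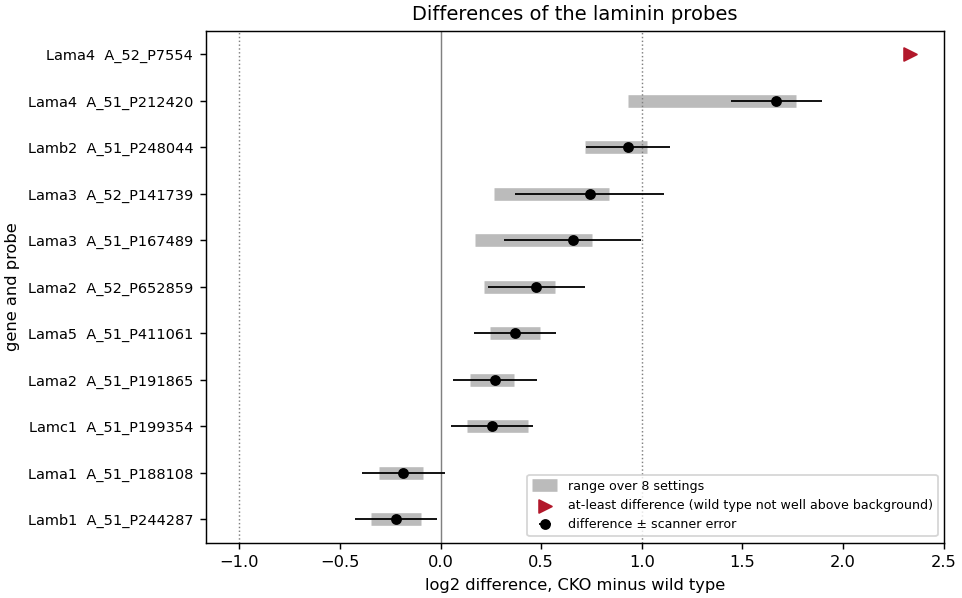
Log2 difference, CKO minus wild type, of the 10 measured laminin probes (black points with the scanner error) and of the Lama4 probe seen in CKO only (red triangle, an at-least value); grey bars span 8 settings and dotted lines mark 2-fold. Lama4 lies beyond 2-fold at 1.67, with a grey bar that reaches down to 0.93, and Lamb1 (-0.22) and Lama1 (-0.19) lie left of 0 throughout.

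**Figure D3:**
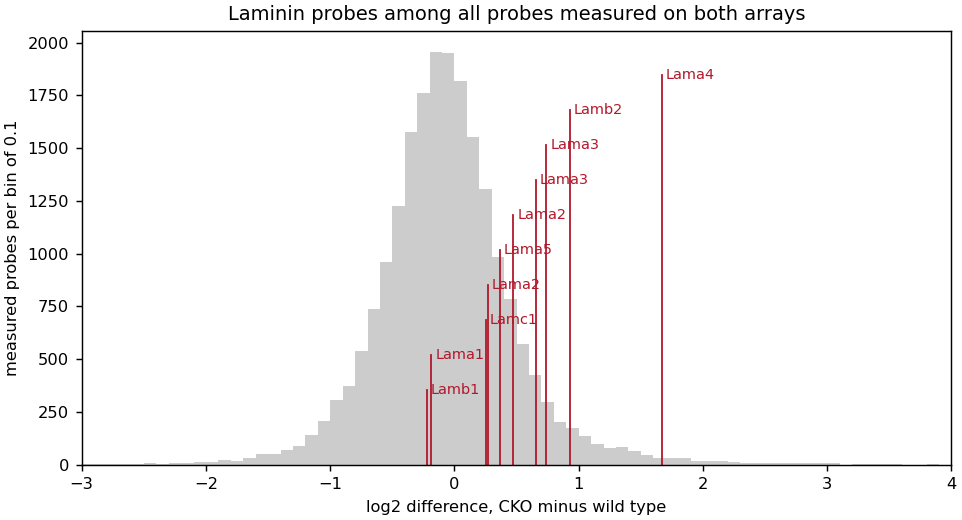
Number of measured probes per bin of 0.1 in log2 difference, CKO minus wild type (grey, 21010 probes), with the 10 measured laminin probes as red lines whose heights only separate the labels. The lines for Lama4 (1.67) and Lamb2 (0.93) stand in the right tail, and the other 8 lie between -0.22 and 0.74.

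Of 63 genes that encode another chain, receptors, binding partners and linkers of laminin, 53 were measured, each by its brightest probe. In CKO 5 were at least 2-fold higher (9.43%, against 4.11% of all 14221 measured genes) and 2 at least 2-fold lower (3.77%, against 3.98%). Their median was -0.20, against 0.42 for the laminin probes. With normexp only Col18a1 of the 5 stayed at least 2-fold higher.

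Matrix partners of the basement membrane held 3 of the 5. Col18a1, the collagen whose fragment is endostatin, gave 2810 intensity units on the CKO array and 1054 on the wild-type array (1.40 ± 0.20), and its other probe was also higher (1.27). Col15a1, a collagen of vessel and muscle basement membranes, gave 62.9 and 18.8 (1.73 ± 0.34), and was near the lowest measurable level in wild type. Nid2, one of the nidogens that link laminin to collagen IV, gave 119 and 47.8 (1.31 ± 0.24). The collagen IV chains went the other way. All 6 of them were lower in CKO, by -1.27 to -0.24, and in every setting, with a value closest to 0 of -0.01. Col4a3 was the only one at least 2-fold lower, at 334 against 799 (-1.27 ± 0.20), with a second measured probe at -1.20. Nid1, the other nidogen, was lower at -0.45 and Hspg2, the gene of perlecan, at -0.59; these 2 genes and the collagen IV group were singled out after their values were seen. Over the 14 matrix partners the median was -0.47.

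Among receptors, Bcam, a membrane protein that binds the alpha 5 chain, was the one past 2-fold of 7 non-integrin receptors, at 147 in CKO and 47.5 in wild type (1.62 ± 0.23, and 0.96 with normexp). Sdc4, a heparan sulphate proteoglycan of focal adhesions, gave 350 and 188 (0.88 ± 0.21), although its other probe gave 0.27. Of 7 laminin-binding integrin subunits 6 were measured, and Itga1 was past 2-fold at 72.1 against 33.3 (1.11 ± 0.29). Another measured probe of Itga1 had the opposite sign (-0.34), so the gene has no settled direction. The next largest integrin difference was that of Itga2, at 0.22 ± 0.23, within its error. The integrin subunits had a median of 0.06 and the non-integrin receptors of 0.11.

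The genes that glycosylate dystroglycan or belong to its complex were lower by small amounts, with 12 of 13 measured, 0 past 2-fold in either direction and a median of -0.35. Pomt1 and Pomt2, the paired enzymes that start the sugar chain on which laminin binding depends, were at -0.71 and -0.68, but a second Pomt2 probe gave 0.33. Of 10 linkers between integrins and actin, Lims1, the gene of the adaptor PINCH1, was lower at 828 against 2987 (-1.86 ± 0.20), and its other probe gave -1.10. Tln2, a talin, was at -0.75, with another probe at -0.06, and the median of the linkers was -0.21. The hemidesmosome list had 3 of 6 genes measured, none past 2-fold, with Plec at -0.72 and Dst at -0.63. Other measured probes reached 0.07 for Plec and -0.15 for Dst. Of 5 laminin-related netrins only Ntn3 was measured (0.21 ± 0.30), and Ntng1 was seen in CKO only, at least 2.74-fold higher.

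**Figure D4:**
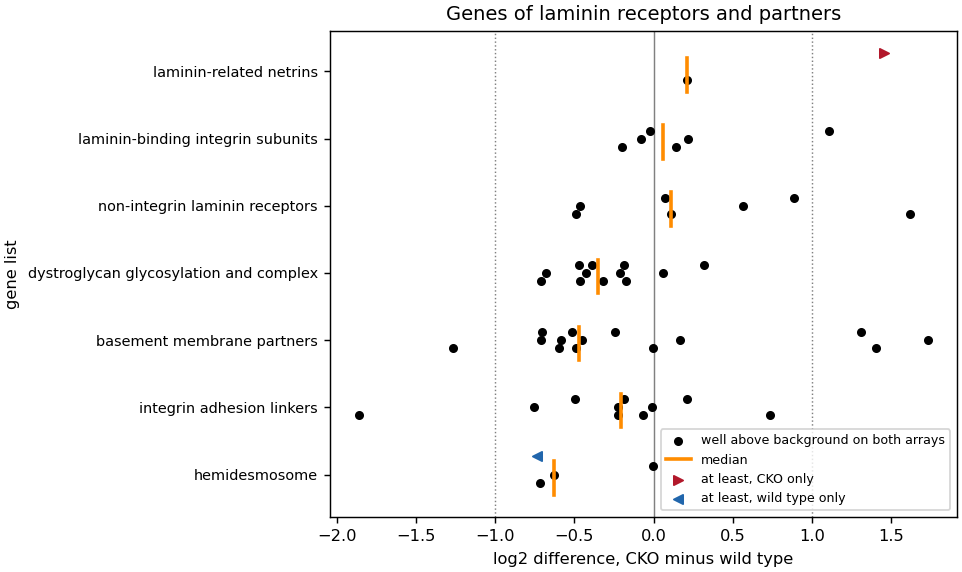
Log2 difference, CKO minus wild type, of laminin partner genes, by list; black points are genes measured on both arrays, triangles are at-least values of genes seen on 1 array, orange bars are medians and dotted lines mark 2-fold. Basement membrane partners spread from -1.27 to 1.73, while the 12 dystroglycan genes all lie within 2-fold.

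Marker genes of cells other than lens cells were read on the same arrays, and endothelial, macrophage and mesenchyme markers were mostly higher in CKO. Of 10 endothelial markers 9 were measured, 8 of them at least 2-fold higher in CKO (4 with normexp; 4.11% of all measured genes), with a median of 1.33, and the other, Pecam1, was seen in CKO only (at least 3.72-fold). Their summed signal, scaled to each array's 75th percentile, was 28.4 in CKO and 9.31 in wild type; such sums follow the brightest probes and serve only to set the arrays side by side. The measured endothelial markers ran from 0.67 to 2.14 (Vwf), with Tie1 at 1.94 and Cldn5 at 1.67. Of 9 markers of pericytes and smooth muscle 8 were measured and 3 were at least 2-fold higher (1 with normexp), with a median of 0.28 and summed levels of 31.1 and 27.9. Among these Cspg4 was at 1.51, Kcnj8 at 1.39 and Rgs5 at 1.28, while Pdgfrb was at -0.28 and Notch3 at -0.33. Acta2, the brightest, was at -0.07, but another measured probe of it gave 1.43, so the gene has no settled direction. Of 8 fibroblast and ocular mesenchyme markers 5 were measured and 3 of these were at least 2-fold higher, with normexp too (Col3a1 at 4.83, Col1a2 at 2.82). The other measured genes were Pdgfra at -0.08 and Fbln1 at -0.08, although another Fbln1 probe gave 1.01. The 3 not measured were seen in CKO only, and the summed levels of the list were 49.0 and 5.25. Macrophage markers summed to 25.3 and 4.41, with 4 of 5 measured genes at least 2-fold higher, with normexp too (Ctss at 5.40, Trem2 at 4.55, but C1qb at -0.02) and the other 5 seen in CKO only. Of these 4 lists Des was the only gene not well above background in CKO. The part of these cells in the laminin differences was not tested.

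Markers of other tissues were set beside the epithelial chains. Of 8 surface epithelium markers 3 were measured, 2 of them at least 2-fold lower in CKO (Krt1 at -3.23, Krt17 at -1.17, and Krt10, the brightest, at -0.05), with summed levels of 4.61 and 6.47. Krt5, Krt12, Trp63 and Dsg3 were well above background on neither array. The part of surface epithelium in the Lama3 values was not tested. Pigment cell markers summed to 2.46 and 0.98 with 3 of 7 measured (Dct 10.6-fold and Pmel 2.83-fold higher, Oca2 1.72-fold lower), and skeletal muscle markers to 7.10 and 17.1 with 3 of 7 measured (Actn2, which makes up most of the sum, at -1.42, Acta1 at 1.37 and Mylpf at 0.62). Of 7 retina markers only Elavl4 was measured (-2.25), and the list summed to 0.82 and 1.94. Genes of the labelled tissue were present throughout, with all 10 lens epithelium and all 14 lens fibre markers measured on both arrays. Epithelial markers had a median of -0.01 (Aqp1 at 1.90, Sfrp1 at -0.88, Dkk3 at -0.41) and fibre markers of -0.36 (Lgsn at -2.21, Birc7 at -1.41, Crybb1 at -0.19, Cryba1 at -0.07). The bright fibre genes Crybb1 and Cryba1 changed sign with the setting, reaching 0.18 and 0.30. Lama1 and Lamb1, at -0.19 ± 0.21 and -0.22 ± 0.20, lay between these medians, but also near the median of all measured probes (-0.08). With errors of that size their position does not tie them to either list, and the part of lens cells in their values was not tested.

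**Figure D5:**
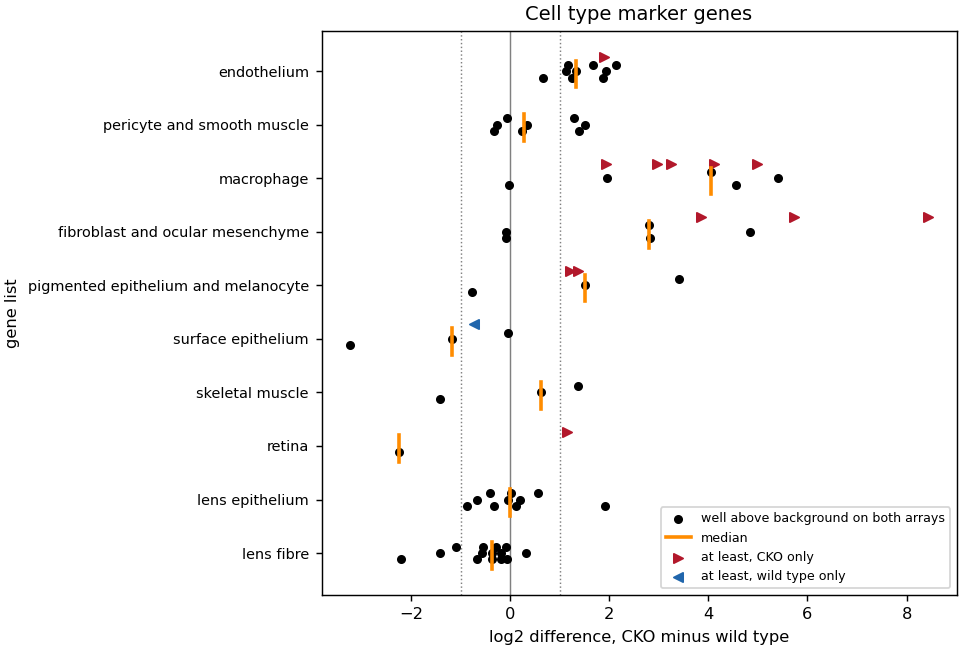
Log2 difference, CKO minus wild type, of marker genes in 10 lists; black points are genes measured on both arrays, triangles are at-least values of genes seen on 1 array, orange bars are medians and dotted lines mark 2-fold. The endothelial, macrophage and mesenchyme medians lie at 1.33, 4.05 and 2.80, and the lens epithelium and fibre medians at -0.01 and -0.36.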

How the data were processed

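Total RNA of lenses was amplified, labelled with Cy3 and hybridised to Agilent arrays (design 014868), 1 per genotype, per the labels' protocols. The deposited scanner files hold intensity values per spot from Agilent Feature Extraction 10.7, background-subtracted and detrended per the file headers, with probe positions in mm9. Both arrays carry the same scan identifier. The deposited series table holds log2 values; its steps are not given in the sources used here, it followed the scanner values (r = 0.9999 for each array, 0.987 for the difference over 21010 probes), and its columns share 1 distribution with a median of 4.87. Its centring is unknown, and it served only as an alternative.

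Processed signals were taken without control spots and outlier-marked spots (127 and 169, none of a laminin probe), averaged over spots of a probe on the log2 scale and scaled to each array's 75th percentile. A probe was well above background where more than 50% of its spots had the mark. A probe marked on 1 array only got an at-least fold: its signal there against the higher of the lowest marked signal and its own signal on the other array. Genes in lists took their brightest measured probe. Symbols outside the laminin rule were updated with a RefSeq table of assembly GRCm38.p6, in which 27668 probes were found through their accession, 5589 through their symbol and 471 through a former symbol; the 7446 others kept the file's name. With 1 array per genotype there is no test, and the number of arrays limits the precision.

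The members, the 8 partner lists and the 10 marker lists were chosen with earlier results of these data known. Named are all members, Msx2, Lamc3, partner genes past 2-fold, the 2 measured genes of each partner list with the largest difference, and of each marker list the 2 brightest and the 2 with the largest difference; 1 item of the named set is not reported here and is left out of the counts of partner genes. Alternatives were normexp (offset 50, limma 3.58.1 in R 4.3.3), other scalings, the deposited table, outlier spots kept, other filters on dim probes, other folds and the mean of a gene's probes. The procedure was tested on simulated data. All else was run in Python (3.11.15; packages pandas 2.3.3, numpy 2.4.6 and statsmodels 0.14.6).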

Additional observations from a re-analysis of the deposited data

How the results depend on the processing

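The count of laminin probes at least 2-fold higher in CKO, 1 as reported, was 0 with normexp, 2 with the 75th percentile over measured probes, 2 with intensity-dependent centring, 3 with no filter (15 probes), 2 when a mark on either array sufficed and 4 at 1.5-fold. No laminin probe was 2-fold lower in any setting. The median of the measured laminin probes ran from 0.24 to 0.52. Partner genes at least 2-fold higher, 5 as reported, were 1 with normexp and 2 at 3-fold; those lower, 2 as reported, were 11 at 1.5-fold and 1 at 3-fold. Across 7 alternatives no measured laminin probe changed sign, and the 5 values that moved beyond the scanner error were all under normexp. By construction, keeping outlier-marked spots could change no laminin probe, and the 2 other percentile or median scalings shift every probe alike by less than that error. Normexp also reduced the counts over all probes, from 764 higher and 750 lower to 277 and 267, and other scalings split them 854 to 600 (intensity-dependent centring, 58.7% higher). Signal over background limits Lama3, Lamb3, Lama4 A_51_P212427 and A_52_P78714, and the offset of normexp weighs most on such dim probes. No paired analysis was possible because each genotype has 1 array, and no array could be left out.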
